A study of Mus musculus with 4 samples.

Results

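The 10 genes B2m, H2-K1, H2-D1, Tap1, Tap2, Tapbp, Psmb8, Psmb9, Nlrc5 and Erap1 make, load and regulate the MHC class I molecules that show peptides to T cells. They were chosen by gene symbol, with no measured value in the rule, and each symbol matched 1 row among the 32227 genes of the feature table. Their unique molecular identifiers (UMIs, counted molecules) were followed in single cells of mouse pancreatic islets. Of 4 labelled libraries, mutant 1, mutant 2 and control 2 were used. Counts of control 1 were not used here.

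The mutant mice were homozygous for a CRISPR-Cas9 insertion in an exon of Myt3 (St18), a zinc finger transcription factor, that disrupts an upstream open reading frame. The control mice were homozygous for the wild-type allele. The mutant line was crossed for several generations, to CBA/BL6j mice by the study's methods but to C57Bl/6j mice by its results text, before heterozygotes were mated to give both genotypes. The H2 (MHC) haplotypes of the mice are thus not known here, and their part in the counts was not tested. The labels describe adult mice on a normal diet, whereas the study's methods describe a high-fat diet. By its methods islets of males and females were pooled in each sample, but its results text states a focus on males under that diet. The labels give no age beyond adult, and the study's methods start the high-fat diet some weeks after birth and keep it for some months. The study asked how altered Myt3 translation changes β cells under metabolic stress. The comparisons below concern where the class I genes were expressed among islet cells, and how their β cell counts differed between the libraries.

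A class I molecule consists of a heavy chain, here encoded by H2-K1 or H2-D1, the light chain β2-microglobulin encoded by B2m, and a short peptide. The peptide is cut from cytosolic proteins by the proteasome, whose immunoproteasome form carries the subunits encoded by Psmb8 and Psmb9. It then crosses into the endoplasmic reticulum through the transporter formed by the Tap1 and Tap2 products, is trimmed by the aminopeptidase of Erap1 and is loaded with the help of tapasin, the product of Tapbp. Nlrc5 encodes the transactivator of class I promoters. Interferons and NF-κB raise the transcription of most of these genes. In islets the pathway is best known because CD8 T cells recognise β cells through class I in autoimmune diabetes.

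Sequence of the proximal promoters is given as background, and no link between it and the levels below was tested. In the RefSeq windows of the GRCm38.p6 assembly, from 250 bases before to 50 bases after a transcription start, 8 of the 10 members had at least 1 window. H2-K1 lies at chr17:34000298-34000597 on the minus strand, H2-D1 at chr17:35262844-35263143 on the plus strand, B2m at chr2:122147437-122147736 on the plus strand and Tap1 at chr17:34187306-34187605 on the plus strand. Capitals mark matches on either strand to a κB-like pattern (GGGNNTNNCC), a short core of the interferon-stimulated response element (AANNGAAA), its tandem form (GAAANNGAAA), which contains the short core, and the CCAAT box.
H2-K1: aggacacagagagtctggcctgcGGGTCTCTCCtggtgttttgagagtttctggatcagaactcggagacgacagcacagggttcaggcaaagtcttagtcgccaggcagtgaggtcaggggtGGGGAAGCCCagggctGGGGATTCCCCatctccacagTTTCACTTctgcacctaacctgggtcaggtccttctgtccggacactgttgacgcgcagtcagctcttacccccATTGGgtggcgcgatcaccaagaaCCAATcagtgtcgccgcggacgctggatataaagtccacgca
H2-D1: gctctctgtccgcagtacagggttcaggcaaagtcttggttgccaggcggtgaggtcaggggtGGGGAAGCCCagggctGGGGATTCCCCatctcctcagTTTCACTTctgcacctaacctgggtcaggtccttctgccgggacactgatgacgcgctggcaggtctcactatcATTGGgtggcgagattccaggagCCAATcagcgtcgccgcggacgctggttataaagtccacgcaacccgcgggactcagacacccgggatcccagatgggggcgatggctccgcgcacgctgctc
B2m: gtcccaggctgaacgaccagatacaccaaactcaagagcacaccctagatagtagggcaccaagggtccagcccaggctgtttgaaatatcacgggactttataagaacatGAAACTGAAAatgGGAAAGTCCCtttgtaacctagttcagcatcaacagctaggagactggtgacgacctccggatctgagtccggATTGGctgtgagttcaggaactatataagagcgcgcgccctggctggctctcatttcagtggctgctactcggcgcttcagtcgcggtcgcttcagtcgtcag
Tap1: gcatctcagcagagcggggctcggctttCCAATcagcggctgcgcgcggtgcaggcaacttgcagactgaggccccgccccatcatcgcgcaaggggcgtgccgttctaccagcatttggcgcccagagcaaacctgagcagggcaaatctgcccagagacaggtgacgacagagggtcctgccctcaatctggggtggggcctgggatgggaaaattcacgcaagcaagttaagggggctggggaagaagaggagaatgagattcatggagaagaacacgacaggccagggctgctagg

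The κB-like pattern was in the windows of B2m, H2-K1 and H2-D1, 3 of the 8 members with a window, and in 18.4% of all 32851 windows. The short response element core was in 4 of 8 members (B2m, H2-K1, H2-D1 and Erap1) and in 23.9% of all windows, and its tandem form was in B2m and Erap1 and in 3.44% of all windows. CCAAT was in 6 of 8 members and in 37.4% of all windows. The H2-K1 and H2-D1 windows shared an identical run of 47 bases that holds κB-like matches. Tap1 and Psmb9 are transcribed away from each other, and their windows shared 275 bases. These matches describe letters only. In the RefSeq gene order Psmb9, Tap1, Psmb8 and Tap2 are consecutive neighbours on chromosome 17, where Tapbp, H2-K1 and H2-D1 also lie. B2m is on chromosome 2, Erap1 on chromosome 13 and Nlrc5 on chromosome 8.

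Cells were classed by hormone share of their UMIs (insulin for β, Gcg for α, Sst for δ cells) or by at least 4 markers of endothelial cells or macrophages. In mutant 1, mutant 2 and control 2 this gave 2140, 1483 and 1954 β cells, 294, 217 and 34 α cells, 21, 30 and 33 δ cells, 40, 33 and 37 endothelial cells and 15, 14 and 12 macrophages. The 3 libraries held 8448466, 9013499 and 36985253 UMIs and shared no cell barcode, and the median β cell held 2873, 4597 and 16077 UMIs. The library labelled control 2 was thus the deepest, and its batch label differed from that of the other 3 libraries, and batch and depth could not be separated from genotype. A list of 15 endothelial markers summed to between 20598 and 29471 UMIs per 1e6 UMIs in the endothelial class and to between 55.8 and 127 in β cells. The 15 macrophage markers summed to between 25313 and 34814 per 1e6 in the macrophage class and to between 48.6 and 85.0 in β cells, and none of 8 lymphocyte markers had a UMI in the macrophage class. These marker lists also set the classes, so the sums are no independent check of them. β cells held 1, 7 and 2 UMIs of Xist and 1799, 1848 and 4756 of the Y-linked Ddx3y. The methods describe pooled males and females, and the results text a focus on males. St18 itself stood at 82.4, 98.8 and 81.3 UMIs per 1e6 in β cells, and gene counts do not read the insertion.

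The heavy chain H2-K1 was the most abundant member in β cells. Its level, in CPM (UMIs per 1e6 after TMM normalisation), reached 1002 for mutant 1, 903 for mutant 2 and 676 for control 2. It stood at 799, 812 and 657 CPM in α cells and at 859, 853 and 532 CPM in δ cells of the same libraries. Endothelial cells held 2357, 2405 and 1399 CPM, and macrophages held 2681, 2476 and 1360 CPM. The hormone classes overlapped with each other. However, within each library both non-endocrine classes were higher than all 3 hormone classes.

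The order of classes was similar for H2-D1, the other classical heavy chain, with means of 239 ± 54.2 CPM in β, 222 ± 46.5 in α, 258 ± 139 in δ, 990 ± 138 in endothelial cells and 747 ± 164 in macrophages (SD, n = 3 libraries). H2-K1 and H2-D1 transcripts are near-identical over long stretches, so the division of their reads between these and other heavy chain genes is uncertain. The loading factor Tapbp had a mean of 295 ± 58.0 CPM in β, 256 ± 17.9 in α, 460 ± 139 in δ, 950 ± 288 in endothelial cells and 696 ± 184 in macrophages. The remaining members were far lower in β cells. Erap1 had a mean of 30.7 ± 1.95 CPM, Nlrc5 of 11.5 ± 7.10, Tap2 of 9.70 ± 4.23, Psmb8 of 7.58 ± 2.05, Tap1 of 6.21 ± 0.740 and Psmb9 of 2.18 ± 1.10 CPM.

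The light chain gene B2m showed the widest range across the classes. β cells held 155, 232 and 414 B2m UMIs in mutant 1, mutant 2 and control 2, or 31.3, 44.3 and 24.9 CPM. δ cells held 0, 2 and 1 UMIs. α cells held 18, 33 and 23 UMIs, or 31.1, 49.3 and 109 CPM. Endothelial cells reached 829, 1414 and 2019 CPM and macrophages 1053, 1933 and 2923 CPM, so that every endothelial and macrophage profile lay above every hormone-cell profile.

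**Figure D1:**
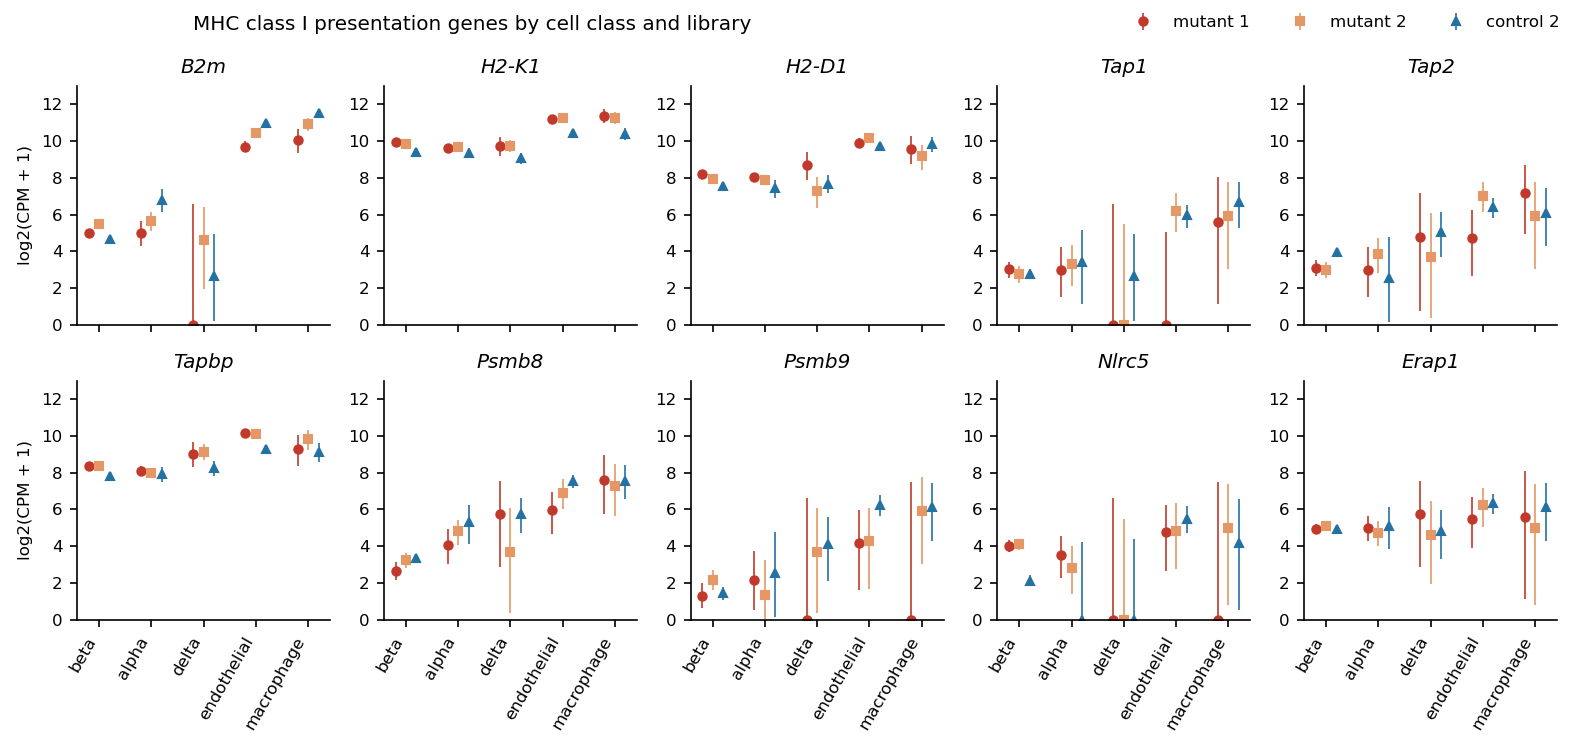
Each panel plots 1 gene, with log2(CPM + 1) on the y axis and the 5 cell classes on the x axis. Points are libraries and bars are exact Poisson 95% intervals that cover counting error only; B2m lies between 829 and 2923 CPM in endothelial cells and macrophages and at or below 109 CPM in every hormone class.

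Whether these differences between classes exceeded their own variation from library to library was tested with edgeR's quasi-likelihood test. It used UMIs summed per class and library, with library as a term and Benjamini-Hochberg adjustment over 4997 genes. Mutant and control libraries were fitted together, so class differences that vary with genotype are part of that variation. Of the 10 members, 9 passed the filter on low counts, and Nlrc5 did not. Only H2-K1, H2-D1 and Tapbp reached the filter's level (53.7 CPM) in β cells. The other 6 reached it in no β profile, and outside the endothelial and macrophage classes only B2m and Psmb8 reached it, in 1 profile each. These 6 passed through the classes where they were high. The counts of members called and the median differences of the members below are therefore no support on their own. In the fit without that filter all 10 members were tested.

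Endothelial cells had more of the class I genes than β cells. All 9 members tested were higher, where 27.1% of all genes tested were higher and 26.1% lower. The median log2 difference of the 9 members was 2.84, and that of all genes tested was -0.03. B2m rose most, by 5.31 ± 0.31 on the log2 scale (SE; edgeR adjusted p = 8.66e-19), or 39.7-fold. Both immunoproteasome subunits followed, Psmb9 by 4.25 ± 0.65 (adjusted p = 4.12e-07) and Psmb8 by 4.01 ± 0.36 (adjusted p = 7.66e-13). The transporter genes Tap2 and Tap1 were higher by 2.95 ± 0.48 and 2.84 ± 0.57. For the heavy chains the differences were smaller, 2.07 ± 0.23 for H2-D1 and 1.23 ± 0.23 for H2-K1, as they were for Tapbp (1.65 ± 0.22) and Erap1 (1.16 ± 0.35, adjusted p = 0.00455).

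Within single libraries the endothelial level exceeded the β level in all 3 libraries for each of these members but Tap1. Tap1 had 0, 8 and 22 endothelial UMIs, so its endothelial level in mutant 1 was not detectable in 40 cells. Nlrc5 had 3, 3 and 16 endothelial UMIs against 75, 84 and 55 in the far larger β class. Without the low-count filter its call in endothelial cells was also higher, which made 10 of 10 members. In macrophages that fit called 8 of 10, and Nlrc5 and Erap1 were not called. Without the library labelled control 2, which held most endothelial UMIs, 6 members remained testable and all 6 were called higher. Tap1, Psmb9 and Erap1 then fell below the filter. The shares of all genes called in these alternative fits are not given here, so their counts are no support on their own.

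**Figure D2:**
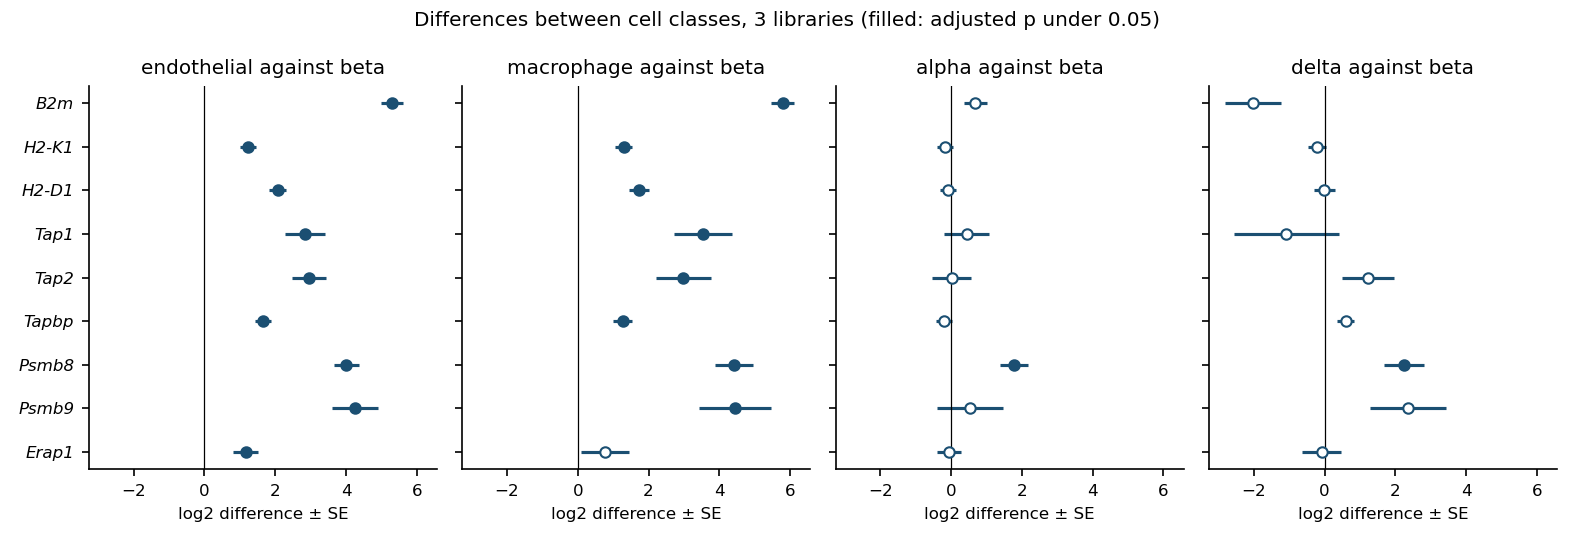
Log2 differences between cell classes (x axis, ± SE, 3 libraries) for the 9 members tested, 1 panel per comparison. Filled points passed an adjusted p of 0.05, which holds for 9 members in endothelial cells, 8 in macrophages and Psmb8 alone in α and δ cells.

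Macrophages showed a like pattern. Of the 9 members tested, 8 were higher than in β cells, where 16.0% of all genes were higher and 24% lower, and the median difference was 2.98 for the members and -0.63 for all genes. B2m was higher by 5.80 ± 0.33 (adjusted p = 1.63e-18), Psmb9 by 4.44 ± 1.02, Psmb8 by 4.43 ± 0.54, Tap1 by 3.54 ± 0.83 and Tap2 by 2.98 ± 0.77. H2-D1 was higher by 1.73 ± 0.28, H2-K1 by 1.29 ± 0.25 and Tapbp by 1.27 ± 0.26. Erap1 had a difference of 0.77 ± 0.68 (adjusted p = 0.392) on 1, 1 and 4 macrophage UMIs. These profiles came from 12 to 15 cells each, and Psmb9 had 0, 2 and 4 UMIs in them.

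Between macrophages and endothelial cells none of the 9 members passed the edgeR test, none had an unadjusted p under 0.05, and DESeq2 called 0 of 9. The background there was 9.21% of genes higher and 17.1% lower in macrophages. The estimates ranged from -0.40 ± 0.66 for Erap1 to 0.70 ± 0.76 for Tap1, and B2m differed by 0.49 ± 0.28. With standard errors of this size a moderate difference was not detectable. When every cell was thinned to 1000 UMIs, H2-D1 and Tapbp were called lower in macrophages.

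Among the hormone classes Psmb8 was the only member called, and it reached the filter's level in no β profile. In α cells it was higher than in β cells by 1.78 ± 0.39 (adjusted p = 0.000403), from 15.6, 26.9 and 38.1 CPM against 5.25, 8.40 and 9.09 CPM in mutant 1, mutant 2 and control 2. These α levels rest on 9, 18 and 8 UMIs. In δ cells Psmb8 was higher by 2.24 ± 0.58 (adjusted p = 0.00454), on 2, 1 and 10 UMIs. No other member passed in either comparison. The background was 14.9% higher and 15.4% lower in α cells and 7.98% higher and 6.90% lower in δ cells. Beside these shares, 1 call among 9 members is no support on its own. The δ call of Psmb8 was lost without the library labelled control 2, where 10 of its 13 δ UMIs lay.

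For both heavy chains the estimates for α and δ cells were small. H2-K1 differed by -0.18 ± 0.23 in α and by -0.22 ± 0.25 in δ cells, and H2-D1 by -0.09 ± 0.23 and -0.00 ± 0.28. Tapbp stood at 0.60 ± 0.24 in δ cells (adjusted p = 0.0945), above its β level in 3 of 3 libraries. B2m stood at 0.68 ± 0.32 in α cells (adjusted p = 0.107) and at -2.02 ± 0.80 in δ cells (adjusted p = 0.0855). In CPM of all UMIs without TMM, where insulin takes up much of the β total, H2-K1 and H2-D1 were called higher in δ cells, by 0.66 and 0.87. With that scaling 6 of 9 members were called higher in δ cells, as were 2140 of 5338 genes. The median of all genes was then 0.91, above the values of both heavy chains. The direction for δ cells therefore depended on the scaling, for these members and for genes at large. The calls in endothelial cells and macrophages kept theirs under each of the 5 scalings, except that Psmb9 was not tested with TMM over all genes.

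The light chain was scarce relative to the heavy chain in hormone cells. B2m made up 3.03% of the B2m and H2-K1 UMIs together in β cells of mutant 1 (exact binomial 95% interval 2.58 to 3.53), 4.68% (4.11 to 5.30) in mutant 2 and 3.56% (3.23 to 3.91) in control 2. It made up 26.0%, 37.0% and 59.1% in endothelial cells and 28.2%, 43.8% and 68.3% in macrophages of those libraries. In α cells the shares were 3.75%, 5.73% and 14.3%, and in δ cells 0 of 33, 2 of 74 and 1 of 100 UMIs. These intervals cover counting error only. The share compares classes within a library and is not a ratio of transcript numbers, since how well each transcript is captured is unknown. No scaling between classes enters it.

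**Figure D3:**
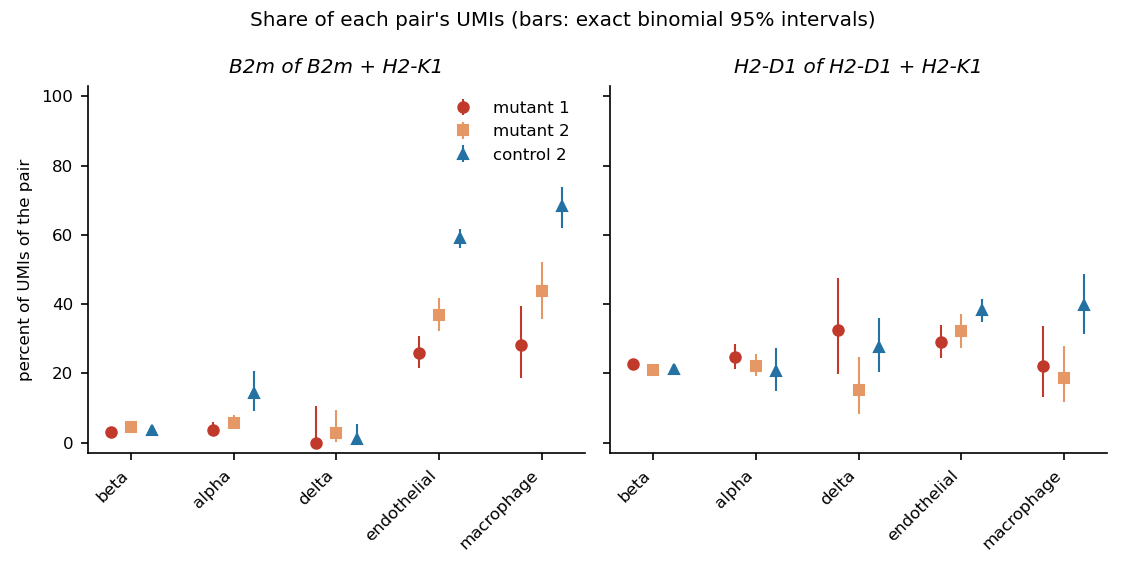
Percent of a pair's UMIs that belong to B2m (left, with H2-K1) or H2-D1 (right, with H2-K1) by cell class, 1 point per library with exact binomial 95% intervals. B2m lies at 14.3% or less in every hormone profile and at 26.0% or more in every endothelial and macrophage profile, while H2-D1 lies between 15.3% and 39.8% throughout.

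To set the β cell B2m level beside that of transcripts β cells should lack, both were expressed against endothelial cells. Cells with at least 4 of these markers were kept out of the β class, and the same markers define the endothelial class. The selection itself thus lowers the marker percentages, and B2m takes no part in it. Per 1e6 UMIs, B2m in β cells stood at 2.33%, 1.84% and 0.543% of its endothelial level in mutant 1, mutant 2 and control 2, and the summed endothelial markers at 0.584%, 0.502% and 0.189% of theirs. H2-K1 in β cells stood at 26.3%, 22.1% and 21.3% of its endothelial level. In β cells without any endothelial or macrophage marker UMI, B2m kept 77, 68 and 76 UMIs and shares of 3.23%, 4.61% and 4.57%. In α cells treated the same way, B2m held 4 of 61 UMIs in control 2. The part of free RNA in the β cell B2m signal was not tested.

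By cell, each cell was thinned to 1000 UMIs, which left out 260 and 110 β cells of mutant 1 and mutant 2 and none of control 2. After thinning, H2-K1 had a UMI in 50.3%, 46.3% and 30.0% of β cells and in 93.5%, 84.4% and 78.4% of endothelial cells. B2m had a UMI in 2.39%, 3.06% and 1.13% of β cells but in 51.6%, 81.2% and 94.6% of endothelial cells and in 5 of 6, 12 of 14 and 12 of 12 macrophages. Without thinning, B2m had a UMI in 6.92%, 13.4% and 15.3% of β cells, at median depths of 2873, 4597 and 16077 UMIs. In δ cells of mutant 1 it had a UMI in 0 of 17 thinned cells, which allows a share of up to 17.6%. Of the 10 members, 7 had a higher thinned share in endothelial than in β cells in all 3 libraries, and 6 did at 500 UMIs per cell. At 1000 UMIs 6 members did so in α cells, 4 in δ cells and 6 in macrophages. Thinning was on all UMIs, of which insulin takes up much in β cells, so these counts are no support on their own.

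Among thinned β cells of a library the variance of the members lay slightly above their mean. The variance of thinned H2-K1 UMIs divided by their mean was 1.09, 1.11 and 1.19, against 1 for pure counting, and for the 10 members summed it was 1.16, 1.13 and 1.17. At means of 0.730, 0.654 and 0.389 H2-K1 UMIs per cell, thinning draws this ratio toward 1. It therefore cannot show how much β cells differed in these genes. Correlations across β cells between H2-K1, H2-D1, Tapbp and B2m all lay between -0.054 and 0.050. With about 1 member UMI per thinned cell, such correlations say little about whether the genes vary together.

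The rest of the pathway was described from gene lists, each counted against the same backgrounds. Of 5 other immunoproteasome and activator genes, all tested, 4 were higher in endothelial cells and 3 in macrophages than in β cells. Psmb10, Psme1 and Psme2 reached the filter's level in no β profile. They were tested because another class was high, so these counts are no support on their own. Psmb10, the remaining inducible catalytic subunit, was higher by 3.07 ± 0.26 and 2.67 ± 0.44, the activator subunit gene Psme1 by 2.68 ± 0.46 and 3.47 ± 0.64, and its partner Psme2 by 1.45 ± 0.43 and 1.80 ± 0.65. The proteasome assembly factor Pomp was higher in endothelial cells, by 1.71, and stood at -0.12 in macrophages. In α cells Psmb10 (0.71, adjusted p = 0.0493) and Psme2 (0.97, adjusted p = 0.0441) were higher, and in δ cells Psmb10 (1.48) and Psme1 (2.60) were. None of the constitutive catalytic subunits Psmb5, Psmb6 and Psmb7 passed in any of the 5 comparisons.

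The chaperones and channels of the endoplasmic reticulum went the other way. Of 9 tested, 7 were lower in endothelial cells and 6 in macrophages than in β cells, and 8 were lower in α cells. Ero1b, an oxidase of the secretory pathway, had log2 differences of -2.81 in endothelial cells and -3.10 in macrophages. Pdia3, a disulphide isomerase of the peptide loading complex, had -0.93 and -1.20, and the chaperone Canx had -0.63 and -1.26. The translocon genes were lower too, Sec61a1 at -1.63 and -1.90 and Sec61b at -1.83 and -1.54. Calr, the other lectin chaperone, was lower in α cells (-1.09) and in δ cells (-1.08). No member was called lower in α or δ cells.

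Of 22 interferon-induced genes outside presentation, 12 were tested, of which 12 were higher in endothelial cells and 10 in macrophages. Apart from Ifi27 none of the 12 reached the filter's level in any β profile, so they were tested because another class was high, and these counts are no support on their own. The same holds for the receptors and signal carriers apart from Jak1 and Socs3, for the regulators apart from Irf1 and Nfkb1, and for all tested class II and other heavy chain genes. Bst2, which tethers virions, was higher by 6.39 and 7.06, Isg15, a ubiquitin-like modifier, by 6.54 and 8.51, and Ifitm3, a restriction factor, by 7.09 and 4.52. Of 12 receptors and signal carriers 9 were tested, of which 8 were higher in endothelial cells and 4 in macrophages. Ifngr1, a chain of the interferon γ receptor, was higher by 3.44 and 3.10, and Ifnar2, a chain of the type I receptor, by 2.63 and 2.70.

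Of 13 regulators of class I genes 8 were tested, of which 4 were higher in endothelial cells and 4 higher and 1 lower in macrophages. Creb1 (0.30 and 1.18) and Nfyc (0.10 and 0.38) were called in neither. Rela, which encodes an NF-κB subunit, was higher by 2.63 in endothelial cells and 1.67 in macrophages, Nfkb1 by 0.60 and 2.11, and Irf8 by 3.82 and 8.42. Irf1, an interferon-induced activator of class I promoters, was higher in endothelial cells, by 2.44, and was called lower in macrophages, where it had 0 UMIs in all 3 libraries. Only 3 of the other class I heavy chain genes were tested, of which H2-Q4 was higher by 2.86 and 2.51. H2-M2, named after its values were seen, was the other one called in macrophages. All 6 MHC class II genes, which present to CD4 T cells, were higher in macrophages than in β cells, among them Cd74 by 10.46 and H2-Ab1 by 9.80. In endothelial cells H2-DMa was called lower and the other 5 were not called. Of 13 tested genes of the H2 region that have no part in presentation, 3 were higher and 1 lower in endothelial cells. In macrophages 3 were higher and 1 lower too, but only 1 gene was higher and 1 lower in both classes.

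Over the 15 profiles, the genes whose log2(CPM + 1) followed that of the summed members most closely, among 6988 genes and outside the lists, were Tgfb1 (Pearson r = 0.974), Gngt2 (r = 0.973), Ppp1r18 (r = 0.971), Cxcr4 (r = 0.970) and Fli1 (r = 0.969). Among the members compared the closest was H2-D1 (r = 0.947, rank 15) and the furthest was Tap1 (r = 0.573, rank 589). Each member is itself part of the sum. The 15 points are 5 classes in 3 libraries that share depth and handling, and no test was made.

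Between libraries, β cells of mutant 1 and mutant 2 were set against the library labelled control 2. With 1 control library there is no test between genotypes, and a difference was called by size where both log2 ratios passed 0.5 in the same direction at a mean of at least 20 CPM. Of the 5 members past that level, Tapbp was called higher and none lower, where 15.3% of 6396 genes were higher and 30.6% lower. The Tapbp ratios were 0.53 and 0.52. With every cell thinned to 1000 UMIs, B2m was the member called higher and Tapbp was not, where 16.7% of 6756 genes were higher. H2-K1 stood at 0.57 and 0.42, H2-D1 at 0.67 and 0.39, B2m at 0.33 and 0.83 and Erap1 at 0.05 and 0.18. All 5 were above the medians of all genes, which were -0.21 and -0.17. They were above 0 in both mutant libraries, as were 2311 of 6396 genes.

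The scaling set the size of these values. In CPM of all UMIs the medians of all genes moved to 0.42 and 0.41, and the share of lower among called genes fell from 66.7% to 22.4%. There 4 of 4 members past the limit of 20 CPM were called higher, where 41.6% of 4714 genes were. With hormone and mitochondrial UMIs left out of the totals the share of lower among called genes was 49.8%. Then 4 of 5 members were called higher, where 22.1% of 6497 genes were. The mean of both ratios stayed above 0 for B2m, H2-K1, H2-D1 and Tapbp under each of the 5 scalings, between 0.46 and 1.12.

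The low members went in different directions. Nlrc5 had 75, 84 and 55 β cell UMIs, or 15.1, 16.0 and 3.31 CPM, with ratios of 2.15 and 2.24. Tap2 had 38, 36 and 242 UMIs and ratios of -0.92 and -1.07. Tap1 had ratios of 0.27 and -0.03, Psmb8 of -0.78 and -0.11 and Psmb9 of -0.24 and 0.98. The mutant libraries thus held more Nlrc5 and less Tap2 per normalised UMI than control 2, and neither gene reached 20 CPM on average. At a limit of 1 CPM they were called higher and lower, respectively.

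**Figure D4:**
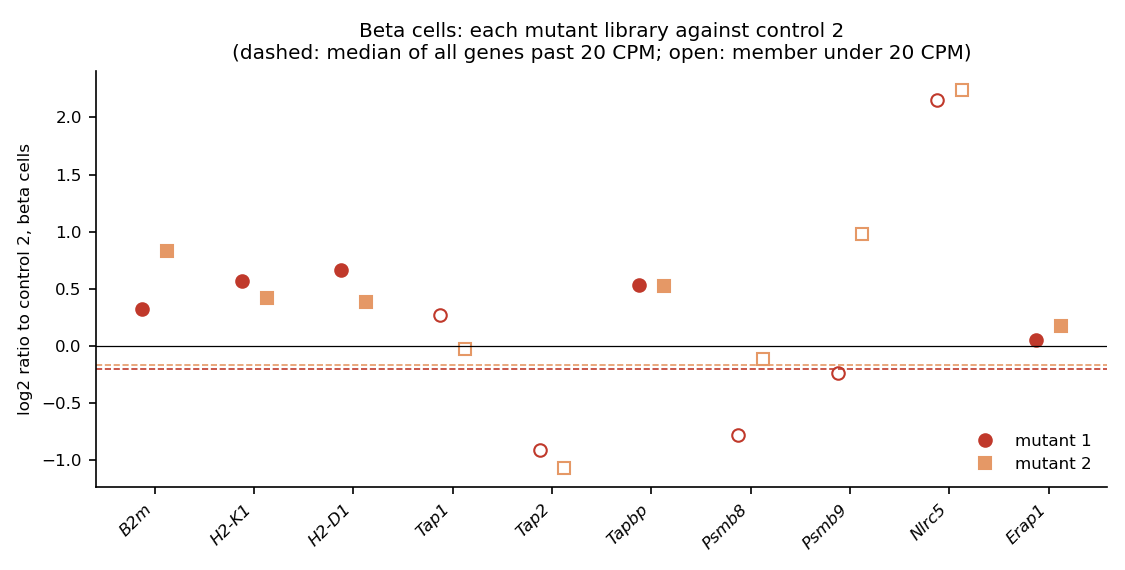
Log2 ratio of mutant 1 (circles) and mutant 2 (squares) to control 2 in β cells for the 10 members, with dashed lines at the medians of all genes past 20 CPM (-0.21 and -0.17). Filled points are members past 20 CPM, all of them above 0, as were 2311 of 6396 genes in both mutant libraries. The open points of Nlrc5 lie above 2.1 and those of Tap2 below -0.9.

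H2 genes outside the members did not share 1 direction. Of 20 genes of the H2 region outside presentation past 20 CPM in β cells, 8 were lower and 6 higher in both mutant libraries. The ribosomal protein gene Rps18 had 109, 201 and 5629 UMIs and ratios of -3.94 and -3.14, whereas Csnk2b, a casein kinase subunit gene, had ratios of 1.43 and 1.18. The other heavy chain genes H2-T22 (-1.42 and -1.10) and H2-Q2 (-1.77 and -1.82) were lower. The chaperone genes Hspa5 (-1.52 and -1.45) and Calr (-1.12 and -1.03) were lower and Ero1b (1.17 and 1.02) was higher. The study's text names chaperones and ribosomal translation among processes of genes higher in mutant β cells. Hspa5, Calr and Rps18 go the other way here, and why was not tested.

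In the other classes H2-K1 was also higher in both mutant libraries than in control 2, with ratios of 0.28 and 0.31 in α, 0.69 and 0.68 in δ, 0.75 and 0.78 in endothelial cells and 0.98 and 0.86 in macrophages. B2m did not follow it. Its ratios were -1.80 and -1.14 in α cells, -1.28 and -0.51 in endothelial cells and -1.47 and -0.60 in macrophages, against 0.32 and 0.82 in β cells. The ratios of all genes outside β cells are not given here, so these directions have no background in their own class. In the B2m shares above, control 2 was the highest library in both non-endocrine classes and in α cells. The β cell shares did not repeat the direction of the ratios in both mutant libraries. There mutant 2 (4.68%) lay above control 2 (3.56%), but mutant 1 (3.03%) lay below it.

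Immunoproteasome subunits replace constitutive partners in the assembled particle (Psmb8 for Psmb5, Psmb9 for Psmb6, Psmb10 for Psmb7), so each pair was also expressed as a share of its UMIs. The share concerns transcripts and does not give the make-up of the particle. How well each transcript is captured is unknown. The Psmb8 share in β cells was 19.1% (exact binomial 95% interval 12.9 to 26.7) in mutant 1, 24.7% (18.6 to 31.7) in mutant 2 and 9.47% (8.07 to 11) in control 2. In endothelial cells it was 53.8%, 65.0% and 71.0%. The Psmb9 share in β cells was 3.52%, 7.29% and 1.58%, and in endothelial cells of control 2 it was 46.6% (33.3 to 60.1). In every library both shares were higher in endothelial than in β cells. In mutant 1 and mutant 2, however, the endothelial Psmb9 share rested on 2 Psmb9 UMIs each, and its interval overlapped that of β cells. The Psmb8 intervals of mutant 1 overlapped as well. In β cells without any endothelial or macrophage marker UMI the Psmb8 share was 11.1%, 26.7% and 10.3% in mutant 1, mutant 2 and control 2, and the Psmb9 share of mutant 2 was 1.28%, on 1 UMI.

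The Psmb10 share in β cells was 72.5% (67.5 to 77.2) in mutant 1, 59.9% (54.7 to 65.0) in mutant 2 and 24.3% (22.2 to 26.4) in control 2. These intervals cover counting error only, and those of the mutant libraries did not overlap each other. Both sides of the pair differed, since Psmb10 had ratios of 1.02 and 0.73 and Psmb7 of -2.02 and -1.48, and Psmb5 (-1.96 and -1.76) and Psmb6 (-1.44 and -1.26) were lower too. The study's text names the proteasome among processes of genes higher in mutant β cells, from both of its control samples. The ratios of Psmb5, Psmb6 and Psmb7 to control 2 alone go the other way, and why was not tested. Depth and batch differ between the same libraries, as given above, and their part in these ratios was not tested. In α cells the Psmb10 shares were 66.1%, 57.4% and 50%, with intervals that overlapped.

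**Figure D5:**
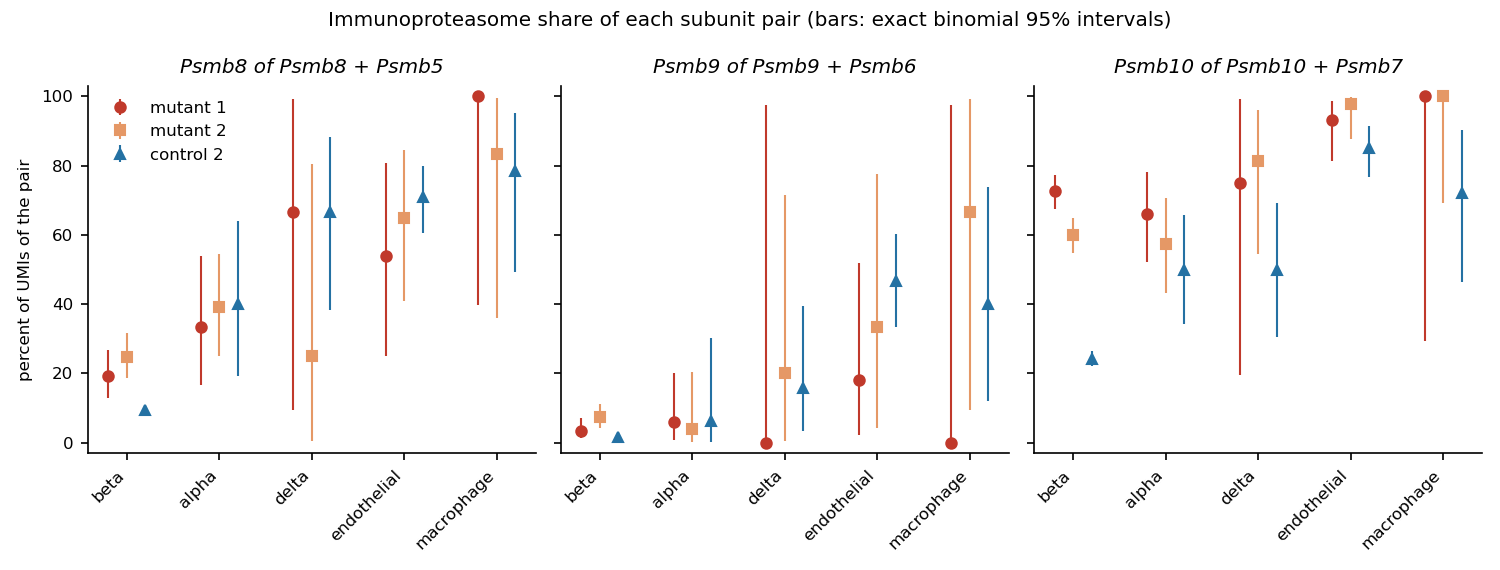
Percent of each subunit pair's UMIs that belong to the immunoproteasome member (y axis) by cell class, 1 point per library with exact binomial 95% intervals. The Psmb10 share in β cells is 72.5% and 59.9% in the mutant libraries and 24.3% in control 2, and the Psmb9 share stays at 7.29% or below in β cells.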

How the data were processed

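Islets were dissociated and profiled by droplet single-cell RNA-Seq (inDrop in the study's methods, PIPseq in the labels). The authors deposited UMI counts per gene and cell, made with DropEst. The study's methods then filter cells on reads, genes and mitochondrial RNA, and the deposited matrices still held some cells below such limits. Per the labels, GRCm39 and Seurat were used. No counts of control 1 were used. Cells with at least 500 UMIs, at least 100 genes and at most 10% mitochondrial UMIs were kept, which left 2940, 2040 and 2283 cells in mutant 1, mutant 2 and control 2. β cells had at least 20% insulin UMIs, α and δ cells at least 5% of their hormone, and endothelial cells and macrophages at least 4 markers and under 25% hormone UMIs. Between 9.33% and 14.6% of cells fell in no class. Cells with at least 4 markers of the endothelial, macrophage, stromal or lymphocyte list were kept out of the hormone classes. Acinar and duct markers were not used for this, and no doublet caller was run. UMIs were summed per class and library (15 profiles) and fitted with edgeR 4.0.16 (TMM, class and library terms, filterByExpr with a count minimum of 10). TMM factors came from 1550 genes averaging 100 CPM or more, to keep zeros of sparse profiles out of them. The fit was tested on simulated data with planted changes. Of 100 log2 changes of 1 it recovered 19 in endothelial cells, 7 in macrophages, 40 in α and 13 in δ cells. Of 100 changes of 2 it recovered 80, 47, 90 and 63 in the same order. DESeq2 1.42.0 was an alternative. Replicates are libraries and library is a term. The p-values therefore measure class differences against their variation between these libraries, which may be technical. Chi-square per degree of freedom between β cells of the mutant libraries was 4.50, above sampling noise. Against control 2 it was 141 for mutant 1 and 115 for mutant 2. Columns of values that belong to no sample numbered 0.

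The members and lists were chosen with earlier results of these data known. Genes were named by rule: all members, from each other list up to 4 genes highest in β cells and any called in both endothelial cells and macrophages, and the 5 genes most like the members. H2-M2 falls outside it. Alternatives covered scaling, test, filter, class limits, depth, mixed cells and each library left out.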

Additional observations from a re-analysis of the deposited data

Results flagged for a closer look

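B2m was marked because its ratio of mutant libraries to control 2 went 1 way in β cells and the opposite way in α cells, endothelial cells and macrophages. δ cells, with 0, 2 and 1 B2m UMIs, were too sparse to be compared. The log2 ratios were -1.80 (mutant 1) and -1.14 (mutant 2) in α cells, -1.28 and -0.51 in endothelial cells and -1.47 and -0.60 in macrophages, against 0.32 and 0.82 in β cells. The difference between classes was not tested, since there is 1 control library. No ratios of all genes outside β cells stand beside these values. As a share of B2m and H2-K1 UMIs, β cells of mutant 2 (4.68%) lay above control 2 (3.56%), but those of mutant 1 (3.03%) lay below it. The control 2 value for α cells rests on 23 UMIs in 34 cells. Only 4 of these UMIs remained without cells holding an endothelial or macrophage marker UMI, where the share of B2m among B2m and H2-K1 UMIs was 4.39%, 5.61% and 6.56% in mutant 1, mutant 2 and control 2, against 3.75%, 5.73% and 14.3% in all α cells.

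H2-D1 was marked in macrophages for the same reason, with ratios of -0.23 and -0.65 against 0.67 and 0.39 in β cells. It rests on 16, 19 and 53 macrophage UMIs, and this difference was not tested either.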

How the results depend on the processing

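No paired analysis was possible because the groups used here share only 1 replicate number, with 1 control library. For single members in the comparisons of cell classes, only those still tested under an alternative were counted. Of these values, 807 stayed called or stayed not called, 14 became calls and 2 lost theirs. Another 2 became calls with the sign reversed, H2-K1 (0.66) and H2-D1 (0.87) in δ cells in CPM without TMM. Calls lost because a member fell below the filter are not in these counts. Members called: in endothelial cells 4 after thinning to 1000 UMIs and 5 without cells holding an endothelial or macrophage UMI, where the members lost were no longer tested. In macrophages 3 and 5, with Tapbp the only lost member still tested. In α cells 2 in CPM without TMM (B2m added), where 2025 of 5338 genes were higher, and 0 after thinning. With a library left out 1 to 2 were called in α cells, with B2m added without mutant 1 and Tapbp added as lower without control 2. In δ cells 6 in CPM without TMM, where 2140 of 5338 genes were higher. There were 2 in δ cells with TMM over all genes (B2m lower added) and 3 with looser hormone shares (B2m lower and Tapbp higher added). Without control 2 the single δ call was Tapbp in place of Psmb8. In macrophages against endothelial cells 1 with TMM over all genes (Tapbp) and 2 after thinning. Where no share of all genes stands beside them, these counts are no support on their own. Higher in both mutant libraries in β cells (share of all genes): 4 in CPM without TMM (41.6%) and 4 without hormone and mitochondrial UMIs (22.1%). The count was 0 with TMM over all genes (13.9%) and 2 at a mean of 1 CPM (20.1%). It was 2 in β cells of 3000 to 6000 UMIs (17.0%), 2 without mixed cells (16.0%) and 0 at a limit of 1 (4.96%). With a mutant library left out it was 2 to 3 (16.9% and 18.6%). Lower: 1 at a mean of 1 CPM (Tap2), where 28.4% of all genes were lower. Without mixed cells the Psmb8 share was 11.1% in β cells of mutant 1 and 0% in δ cells of mutant 2, and the Psmb9 share was 1.28% in β cells of mutant 2, 0.955% in those of control 2 and 0% in α cells of mutant 2. Members with a higher share of cells with a UMI than β cells in all 3 libraries fell from 6 to 2 in α and from 4 to 1 in δ cells at 500 UMIs. Of all called genes, the higher share was 51.0% in endothelial cells, 40% in macrophages, 49.1% in α and 53.6% in δ cells, and in CPM without TMM it was 84.6%, 80.3%, 88.8% and 96.1%, where the medians of all genes were 0.95, 0.56, 0.57 and 0.91. With TMM over all genes it was 40.4%, 22%, 44.6% and 33.7%. Except where stated, the cause was not tested. TMM over all genes and a filter on acinar markers were chosen after seeing the data. Depth limits the members below 20 CPM in β cells and the macrophage and δ profiles most.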

Other observations

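Cd47, whose product signals to phagocytes to spare a cell, was the only checkpoint or stress ligand gene tested in the comparison of classes. It was higher than in β cells by 1.31 in endothelial cells (edgeR adjusted p = 4.25e-06) and by 0.93 in δ cells (adjusted p = 0.0108). In α cells and macrophages it had differences of 0.06 and 0.00 and was not called. Cd274, which encodes PD-L1, had 53 (mutant 1), 66 (mutant 2) and 147 (control 2) β cell UMIs, at a mean of 10.7 CPM.

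Among other peptidases that can trim or destroy class I peptides, the puromycin-sensitive aminopeptidase gene Npepps was lower in endothelial cells than in β cells, with a log2 difference of -1.73 (edgeR adjusted p = 2.34e-05), and the bleomycin hydrolase gene Blmh was higher there, by 1.28 (adjusted p = 6.02e-06). In macrophages Lnpep, an aminopeptidase linked to cross-presentation, was higher than in β cells by 1.80 (adjusted p = 0.000262) and Tpp2 by 2.12 (adjusted p = 0.00353). Tpp2 reached the filter's level in no β profile, so it was tested because another class was high.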
